A study of Mus musculus with 4 samples.

Results

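The cytochrome P450 genes of families 1 to 4 were taken as all gene symbols of the table made of Cyp, a family number from 1 to 4, a subfamily letter and a gene number, which gave 75 of 24493 symbols in 21 subfamilies. The choice used names only and no measured value. The study measured transcript levels in 4 libraries of total RNA from cultured mouse liver cells of C57BL/6 background. Hep_3D held hepatocytes kept in 3D culture and Bil_2D held biliary cells that had been derived from hepatocytes and were kept in 2D culture (n = 2 each). Both groups held 1 library of clone 15C7 (replicate 1) and 1 of clone 19H5 (replicate 2), no treatment was applied, and age and sex were not given in the labels. The 2D or 3D format and the cell state cannot be told apart, since each state had its own format. Values are TPM, the length-corrected share of each gene in a library scaled to 1000000, so levels of different genes can be compared.

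P450 enzymes are heme proteins of the endoplasmic reticulum that insert an oxygen atom into their substrates with electrons passed on by the reductase Por. Families 1 to 3 act mainly on drugs, toxins, steroids and bile acids, and family 4 acts mainly on fatty acids and eicosanoids. Many members are hepatocyte genes with highest expression near the central vein, and bile duct cells carry few of them. In the mouse the subfamilies lie as clusters of near copies: the 15 Cyp2c genes on chromosome 19 (39006940 to 44029256, GRCm38), the 9 Cyp2d genes on chromosome 15 (82370527 to 82794452) and the 7 Cyp3a genes on chromosome 5 (137892933 to 146114978).

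The summed level of the 75 genes was 149 and 114 TPM in the Bil_2D libraries of clones 15C7 and 19H5, and 2172 and 2841 TPM in the Hep_3D libraries. The Hep_3D sum was 14.6-fold the Bil_2D sum in clone 15C7 and 24.8-fold in clone 19H5, and the groups did not overlap. These sums were 0.217% and 0.284% of all TPM in Hep_3D. With 2 libraries a group, the smallest two-sided p of an exact permutation test is 0.33, so the sum was not tested. In a bulk sample, fewer cells with a transcript and less of it per cell cannot be told apart.

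**Figure D1:**
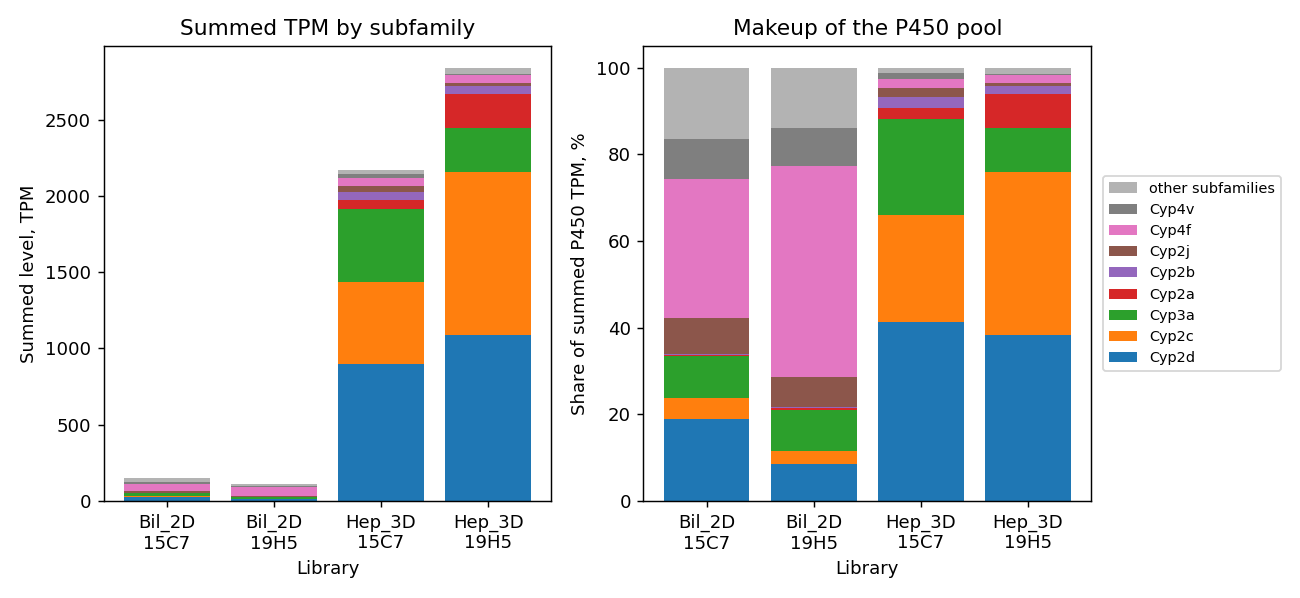
Summed TPM of the P450 genes in each library by subfamily (left) and the share of each subfamily in that sum in percent (right). Cyp2d, Cyp2c and Cyp3a fill most of the Hep_3D bars (sums of 2172 and 2841 TPM), while Cyp4f is the largest part of the Bil_2D bars (sums of 149 and 114 TPM).

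The makeup of this pool also differed. In Hep_3D, 6 genes (Cyp2d26, Cyp2c29, Cyp2c70, Cyp2d10, Cyp3a11 and Cyp2d9) held 75.7% and 75.6% of the P450 TPM in clones 15C7 and 19H5. The same 6 genes held 11.7% and 2.52% in Bil_2D. The 6 most abundant P450 genes of Bil_2D were Cyp4f16, Cyp4f13, Cyp4v3, Cyp2d22, Cyp3a13 and Cyp2j6, with 60.8% and 74.6% of the Bil_2D pool and 8.26% and 6.36% of the Hep_3D pool. Each set of 6 was picked for its level in 1 group, so its lower share in the other describes these libraries only. By subfamily, Cyp2d made up 41.4% and 38.2% of the Hep_3D pool and Cyp2c 24.7% and 37.6%. Cyp4f made up 32.1% and 48.7% of the Bil_2D pool against 2.13% and 1.75% in Hep_3D, although its own sum was close in both states: 47.8 and 55.7 TPM in Bil_2D and 46.2 and 49.7 TPM in Hep_3D.

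Promoter stretches are printed here because they belong to genes that the results turn on: the most abundant Cyp2d, Cyp2c and Cyp3a genes whose window lies outside the annotated gene, Cyp2e1, and 2 genes that fell. Each holds the 250 bases before the RefSeq transcript start (GRCm38.p6), 5′ to 3′ on the gene's own strand, and they were chosen after the values were seen. Capitals mark matches, on either strand, to 5 short motifs. Sites of the hepatocyte factor HNF4 were searched for with the letters CAAAGT. Sites of the liver factor HNF1 were searched for with GTTAAT. The core of sites bound by many nuclear receptors was taken as AGGTCA. The core of the response element of the Ah receptor, which senses polycyclic hydrocarbons, was taken as GCGTG. The TATA box, which positions the transcription machinery, was taken as TATAAA. The positions are chr15:82452127-82452376 (plus strand) for Cyp2d9, chr19:40187287-40187536 (minus) for Cyp2c70, chr5:145879855-145880104 (minus) for Cyp3a11, chr7:140763569-140763818 (plus) for Cyp2e1, chr17:79715062-79715311 (minus) for Cyp1b1 and chr7:25816526-25816775 (minus) for Cyp2s1.
Cyp2d9: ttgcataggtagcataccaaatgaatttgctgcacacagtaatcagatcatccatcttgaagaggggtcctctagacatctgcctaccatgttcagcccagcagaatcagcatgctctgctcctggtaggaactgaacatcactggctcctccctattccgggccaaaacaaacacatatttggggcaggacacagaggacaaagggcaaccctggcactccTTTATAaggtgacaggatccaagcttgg
Cyp2c70: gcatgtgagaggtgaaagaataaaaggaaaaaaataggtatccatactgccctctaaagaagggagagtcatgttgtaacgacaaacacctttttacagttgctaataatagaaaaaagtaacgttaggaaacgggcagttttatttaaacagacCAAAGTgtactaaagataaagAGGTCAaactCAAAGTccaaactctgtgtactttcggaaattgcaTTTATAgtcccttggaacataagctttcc
Cyp3a11: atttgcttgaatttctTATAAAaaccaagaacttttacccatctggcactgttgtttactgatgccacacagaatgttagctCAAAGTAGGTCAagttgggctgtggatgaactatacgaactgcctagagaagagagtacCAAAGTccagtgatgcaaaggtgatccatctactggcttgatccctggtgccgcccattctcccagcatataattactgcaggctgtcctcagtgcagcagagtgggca
Cyp2e1: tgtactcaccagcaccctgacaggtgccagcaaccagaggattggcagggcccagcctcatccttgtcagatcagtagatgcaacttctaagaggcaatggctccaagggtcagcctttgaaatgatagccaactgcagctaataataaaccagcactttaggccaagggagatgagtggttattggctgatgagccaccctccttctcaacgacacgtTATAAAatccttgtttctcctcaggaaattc
Cyp1b1: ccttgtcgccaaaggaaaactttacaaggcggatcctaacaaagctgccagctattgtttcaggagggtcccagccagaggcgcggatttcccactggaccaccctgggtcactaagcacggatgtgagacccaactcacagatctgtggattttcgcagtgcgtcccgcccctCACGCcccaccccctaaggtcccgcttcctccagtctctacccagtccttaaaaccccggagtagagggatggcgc
Cyp2s1: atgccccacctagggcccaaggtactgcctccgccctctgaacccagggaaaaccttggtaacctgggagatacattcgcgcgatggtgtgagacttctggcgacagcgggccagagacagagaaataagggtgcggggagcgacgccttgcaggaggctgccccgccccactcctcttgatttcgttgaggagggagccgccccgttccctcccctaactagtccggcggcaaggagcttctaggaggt

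RefSeq windows were found for 62 of the 75 genes (69 windows). The letters CAAAGT were present in 28 of these 69 windows (40.6%), against 12.6% of all 32851 promoter windows of the same length. They were in 14 of 29 windows of genes that rose (48.3%), and in 14 of 31 windows of genes too low to test (45.2%), so the shares in these sets were close. None of the 3 windows of genes that fell and none of the 6 windows of tested genes without a call held them. The TATA box letters were in 15 of 29 windows of genes that rose (51.7%), 8 of 31 windows of untested genes (25.8%) and 12.4% of all windows. The Ah receptor core was in 13 of the 69 windows (18.8%) against 28.2% of all windows. AGGTCA and CAAAGT can overlap by their shared end letters. Windows of paralogs share sequence and are not independent, and a match is a description of letters.

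The test was limma on log2(TPM + 1) for genes reaching 1 TPM in 2 or more libraries, and rose or fell means an adjusted p (Benjamini-Hochberg over all 12336 genes tested) under 0.05 for Hep_3D against Bil_2D. Fold changes on this scale understate the change of low genes. Of the 75 P450 genes, 41 were tested. Of these 29 rose, against 6.8% of all genes tested, and 3 fell, against 51.9% of all genes tested. The median log2 fold change was 2.22 over the 41 genes and -0.73 over all genes tested. Of the 41 genes, 22 passed the filter only through Hep_3D, with both Bil_2D libraries under 1 TPM, so they had to differ in that direction and their number is no support for it. With 22 of 41 genes above 0 by the filter, the median over the 41 had to be above 0 too. Its sign is therefore no support either. Of the other 19 genes, 7 rose, 3 fell and 9 were not called.

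TPM is a share of each library, so values were also rescaled by median-of-ratios size factors. This raised log2 fold changes by 0.76 at the median of all genes. On that scale 31 P450 genes rose, against 11.9% of all genes, and 0 fell in limma, against 9.54% of all genes. At an unadjusted p under 0.05, 33 were higher and 1 was lower on that scale. With rescaling and clone as a replicate block together, an alternative added after seeing the data, 31 rose, against 14.1% of all genes, and 2 fell (Cyp1b1 and Cyp2s1), against 11.7%. All 29 genes that rose on the TPM scale also rose after median-of-ratios scaling. The groups did not overlap, with Hep_3D higher, for 31 of the 41 genes, against 11.1% of all genes, and with Hep_3D lower for 3, against 71.9%. Of the 31, 22 passed the filter only through Hep_3D and so had to be higher there without overlap. That route was taken by 2.42% of all genes tested. With clone as a replicate block 30 rose, against 7.93% of all genes, and 3 fell, against 58.1%. The shares over all genes are the background for each gene list given later. These lists can also hold genes that passed the filter only through Hep_3D and so had to be higher there. No share over all genes is given for state counts at an unadjusted p or with a library left out. A drop in those counts can therefore not be read as particular to the P450 genes or to a list. Leaving out Bil_2D replicate 2 left 19 genes that rose and 0 that fell in limma (28 and 3 at an unadjusted p under 0.05). The counts were 22 and 1 when Bil_2D replicate 1 was dropped, 28 and 2 for Hep_3D replicate 1, and 27 and 0 for Hep_3D replicate 2 (31 and 2 unadjusted). After median-of-ratios scaling 11, 7, 20 and 23 genes rose as Bil_2D replicates 1 and 2 and Hep_3D replicates 1 and 2 were left out in turn, and 32, 31, 33 and 33 were higher at an unadjusted p under 0.05.

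**Figure D2:**
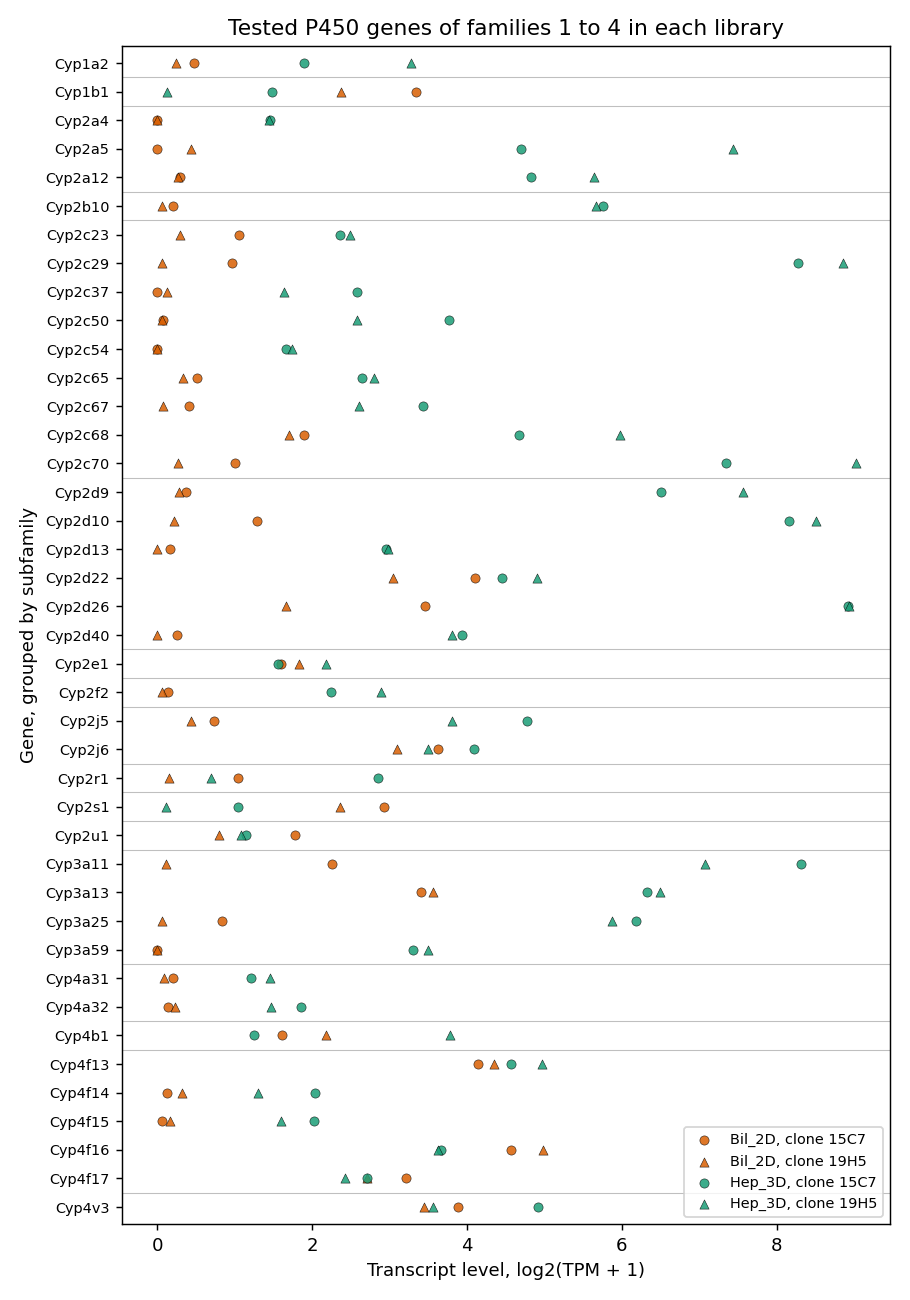
Level of each tested P450 gene as log2(TPM + 1), with 1 point per library (orange Bil_2D, green Hep_3D, circles clone 15C7, triangles clone 19H5) and genes grouped by subfamily. Green points lie to the right of both orange points for 31 of the 41 genes and to the left for 3. Of the 31, 22 passed the filter only through Hep_3D and so had to lie to the right.

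Of 6 tested Cyp2d genes, 5 rose and Cyp2d22 was not called. Among the 5, 3 passed the filter only through Hep_3D (Cyp2d9, Cyp2d13 and Cyp2d40) and so had to be higher there. The subfamily acts on amine drugs and steroids. Cyp2d26 (chromosome 15, 82790107 to 82794452) was the most abundant P450 transcript, with 482 and 488 TPM in Hep_3D and 9.95 and 2.18 TPM in Bil_2D for clones 15C7 and 19H5. The Hep_3D libraries lay close together, and the Bil_2D libraries differed 4.57-fold. Its log2 fold change was 6.36 (SE 0.62, limma adjusted p = 0.00565). Cyp2d10 (chromosome 15, 82402845 to 82407253) had 284 and 362 TPM in Hep_3D and 1.44 and 0.159 TPM in Bil_2D, a log2 fold change of 7.58 (SE 0.41). Cyp2d9, a testosterone hydroxylase biased to male liver, had 89.7 and 187 TPM in Hep_3D and 0.299 and 0.213 TPM in Bil_2D (log2 fold change 6.70, SE 0.39). Its promoter window above holds TATA box letters 28 to 23 bases before the start. Cyp2d40 had 14.3 and 13.0 TPM in Hep_3D, and 0.192 TPM and a listed 0 in Bil_2D. Cyp2d13 had 6.72 and 6.88 TPM in Hep_3D, and 0.12 TPM and a listed 0 in Bil_2D.

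Cyp2d22 stood apart in this subfamily. It had 16.2 and 7.28 TPM in Bil_2D and 20.8 and 29.0 TPM in Hep_3D, so the groups did not overlap but the highest Bil_2D value was near the lowest Hep_3D value. Its log2 fold change was 1.10 (SE 0.42, limma adjusted p = 0.0816) and it was not called. After median-of-ratios scaling it was 1.86 (adjusted p = 0.0424). That call was lost when the replicate block was added (adjusted p = 0.0594) and with any library left out (0.0843 to 0.164). Without Bil_2D replicate 1 the adjusted p on the TPM scale was 0.0494. Cyp2d11, Cyp2d12 and Cyp2d34 were too low to test.

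All 9 tested Cyp2c genes rose. Of the 9, 6 passed the filter only through Hep_3D and so had to be higher there. Cyp2c enzymes oxidise drugs and turn arachidonic acid into epoxides. Cyp2c29, an arachidonate epoxygenase of the pericentral zone, had the largest change of the 41 genes. It stood at 309 and 461 TPM in Hep_3D and at 0.95 and 0.0482 TPM in Bil_2D for clones 15C7 and 19H5 (chromosome 19, 39287044 to 39330713). The log2 fold change was 8.05 (SE 0.39, limma adjusted p = 0.00281).

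Cyp2c70, which makes muricholic acids from chenodeoxycholic acid, had 161 and 516 TPM in Hep_3D and 1.0 and 0.203 TPM in Bil_2D. The groups did not overlap, and the Hep_3D level was 3.20-fold higher in clone 19H5 than in clone 15C7. The log2 fold change was 7.55 (SE 0.64, limma adjusted p = 0.00513). In its promoter window, CAAAGT stands 95 to 90 and 64 to 59 bases before the start and AGGTCA 74 to 69 bases before it. Cyp2c68 had 24.4 and 61.8 TPM in Hep_3D and 2.72 and 2.24 TPM in Bil_2D, with an adjusted p of 0.0514 once Bil_2D replicate 2 was left out. Cyp2c50 had 12.6 and 4.98 TPM in Hep_3D and 0.0577 and 0.0467 TPM in Bil_2D. Its adjusted p of 0.00869 became 0.0527 or 0.0528 when Bil_2D replicate 1 or 2 was left out. The other risen members (Cyp2c23, Cyp2c37, Cyp2c54, Cyp2c65 and Cyp2c67) lay between 2.11 and 9.79 TPM in Hep_3D.

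All 4 tested Cyp3a genes rose, with log2 fold changes from 2.92 to 6.51. Among the 4, 2 passed the filter only through Hep_3D (Cyp3a25 and Cyp3a59) and so had to be higher there. Cyp3a enzymes are broad drug and steroid oxidases, and Cyp3a11 is the main adult liver form and a target of the pregnane X receptor. Cyp3a11 had 318 and 133 TPM in Hep_3D and 3.77 and 0.0821 TPM in Bil_2D (chromosome 5, 145854607 to 145879854). In both states clone 15C7 was the higher, by 2.39-fold in Hep_3D. No fold is given for Bil_2D, where the clone 19H5 value was under 1 TPM. The log2 fold change was 6.51 (SE 0.86, limma adjusted p = 0.00761). Its promoter window holds CAAAGT directly followed by AGGTCA (168 to 157 bases before the start).

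Cyp3a25 had 71.3 and 57.8 TPM in Hep_3D and 0.786 and 0.0445 TPM in Bil_2D. Cyp3a59 had 8.83 and 10.3 TPM in Hep_3D and was listed at 0 in both Bil_2D libraries, so no fold is given. Cyp3a13, a form also known from intestine, was already present in Bil_2D at 9.61 and 10.8 TPM and reached 78.9 and 88.8 TPM in Hep_3D. Its log2 fold change was 2.92 (SE 0.15, limma adjusted p = 0.00308), and its level differed little between clones in either state.

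Of the Cyp2a and Cyp2b genes, Cyp2a4, Cyp2a5, Cyp2a12 and Cyp2b10 were tested, and these 4 rose. All 4 passed the filter only through Hep_3D and so had to be higher there. Cyp2a5, the coumarin hydroxylase, had 24.9 TPM in clone 15C7 and 171 TPM in clone 19H5 in Hep_3D, and a listed 0 and 0.354 TPM in Bil_2D. The groups did not overlap, and the Hep_3D libraries differed 6.88-fold. The adjusted p was 0.0108 in limma, but 0.0629 or 0.0573 when Bil_2D replicate 1 or 2 was left out. Cyp2a12, a steroid hydroxylase, had 27.3 and 48.6 TPM in Hep_3D and 0.23 and 0.209 TPM in Bil_2D (log2 fold change 4.94, SE 0.33). Cyp2a4, a testosterone hydroxylase nearly identical to Cyp2a5, had 1.73 and 1.73 TPM in Hep_3D and was listed at 0 in both Bil_2D libraries. Cyp2b10, the classical target of the constitutive androstane receptor, had 53.2 and 49.7 TPM in Hep_3D and 0.149 and 0.0455 TPM in Bil_2D. Its log2 fold change was 5.58 (SE 0.18, limma adjusted p = 0.00165), with Hep_3D libraries within 1.07-fold of each other. Cyp2a22 and the other 4 Cyp2b genes were not tested.

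Of the tested members of family 1, Cyp1a2 rose and Cyp1b1 fell. Cyp1a2 passed the filter only through Hep_3D and so had to be higher there. Cyp1a2, which oxidises caffeine and aromatic amines in pericentral hepatocytes, had 2.71 and 8.69 TPM in Hep_3D and 0.395 and 0.18 TPM in Bil_2D. It rose with a log2 fold change of 2.22 (SE 0.52, limma adjusted p = 0.0246), but leaving out Bil_2D replicate 1 or 2 gave adjusted p of 0.0911 or 0.103. Cyp1b1, a form of non-hepatocyte tissues that oxidises estrogens and polycyclic hydrocarbons, had 9.17 and 4.16 TPM in Bil_2D and 1.80 and 0.0947 TPM in Hep_3D (chromosome 17, 79706940 to 79715061). The groups did not overlap, and it fell with a log2 fold change of -2.05 (SE 0.60, adjusted p = 0.0433). After median-of-ratios scaling the value was -1.55 and was not called (adjusted p = 0.159), but it was called with clone as a replicate block added (0.0382). The TPM-scale call was also lost without Bil_2D replicate 1, Bil_2D replicate 2 or Hep_3D replicate 2 (adjusted p = 0.169, 0.0753 and 0.134). Cyp1a1, the most inducible Ah receptor target, stayed at or under 0.531 TPM in all 4 libraries.

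Cyp2s1, an epithelial P450 that also responds to the Ah receptor, followed Cyp1b1. It had 6.61 and 4.12 TPM in Bil_2D and 1.06 and 0.0838 TPM in Hep_3D (chromosome 7, 25802469 to 25816525). It fell with a log2 fold change of -2.06 (SE 0.42, limma adjusted p = 0.0176), and was -1.60 after median-of-ratios scaling (adjusted p = 0.0763, or 0.0348 with clone as a replicate block). Leaving out Bil_2D replicate 1, Bil_2D replicate 2 or Hep_3D replicate 2 gave adjusted p of 0.0857, 0.0573 and 0.0578 in TPM. The Ah receptor core letters occur once in the Cyp1b1 window above (76 to 72 bases before the start) and not in that of Cyp2s1. For both genes clone 15C7 was higher than clone 19H5 in each state. Of 8 tested genes on an Ah receptor list, 1 rose (Cyp1a2) and 3 fell (Cyp1b1, Cyp2s1 and Gsta1) on the TPM scale. The shares over all genes were 6.8% and 51.9%. After median-of-ratios scaling 1 rose and 1 fell, against 11.9% and 9.54%. Cyp1a2, Cyp1b1 and Cyp2s1 are P450 genes already counted above, and Cyp1a2 had to be higher by the filter. Gsta1, a glutathione transferase, was the gene that fell most, with 248 and 318 TPM in Bil_2D and 11.0 and 38.4 TPM in Hep_3D.

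Cyp2e1, which oxidises ethanol and acetaminophen and is one of the most abundant P450s of liver near the central vein, was low in all 4 libraries. It had 2.04 and 2.55 TPM in Bil_2D and 1.96 and 3.53 TPM in Hep_3D (chromosome 7, 140763819 to 140774990). The groups overlapped, and the log2 fold change was 0.16 (SE 0.30, limma adjusted p = 0.667). Only TATA box letters were found in its promoter window, 31 to 26 bases before the start. On a list of 19 pericentral genes, 15 were tested, of which 6 rose and 6 fell, against 6.8% and 51.9% of all genes, and 6 rose and 2 fell after median-of-ratios scaling. The 6 that rose were Cyp27a1 and 5 P450 genes already counted above (Cyp1a2, Cyp2a5, Cyp2c29, Cyp2c37 and Cyp2c50). These 5 passed the filter only through Hep_3D and so had to be higher there. The 6 that fell were not P450 genes. The gene that fell most was Lect2, a secreted liver protein, with 47.3 and 138 TPM in Bil_2D and 4.81 and 11.8 TPM in Hep_3D. Its adjusted p was 0.0175 in TPM, or 0.0748 when rescaled by size factors.

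Single-gene subfamilies and Cyp2j gave low values. Cyp2f2, which activates naphthalene in the lung, had 3.73 and 6.39 TPM in Hep_3D and 0.103 and 0.0471 TPM in Bil_2D (log2 fold change 2.46, SE 0.30, limma adjusted p = 0.00698). Cyp2j5, an arachidonate epoxygenase of kidney and liver, had 26.4 and 13.0 TPM in Hep_3D and 0.663 and 0.348 TPM in Bil_2D, and rose with a log2 fold change of 3.71 (SE 0.39, adjusted p = 0.00595). Both Cyp2f2 and Cyp2j5 passed the filter only through Hep_3D and so had to be higher there. Cyp2j6, the neighbour of Cyp2j5, had 11.3 and 7.58 TPM in Bil_2D and 16.0 and 10.3 TPM in Hep_3D. These groups overlapped, and the log2 fold change of 0.43 was not called (adjusted p = 0.286). After median-of-ratios scaling the adjusted p was 0.0554, or 0.0245 with clone as a replicate block. Cyp2r1, the vitamin D hydroxylase of liver, had 1.06 and 0.107 TPM in Bil_2D and 6.19 and 0.626 TPM in Hep_3D. It was higher in clone 15C7 in both states, with values under 1 TPM in clone 19H5, and was not called between states (adjusted p = 0.267). Cyp2u1, a fatty acid hydroxylase, had 2.45 and 0.746 TPM in Bil_2D and 1.21 and 1.11 TPM in Hep_3D, with no call.

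**Figure D3:**
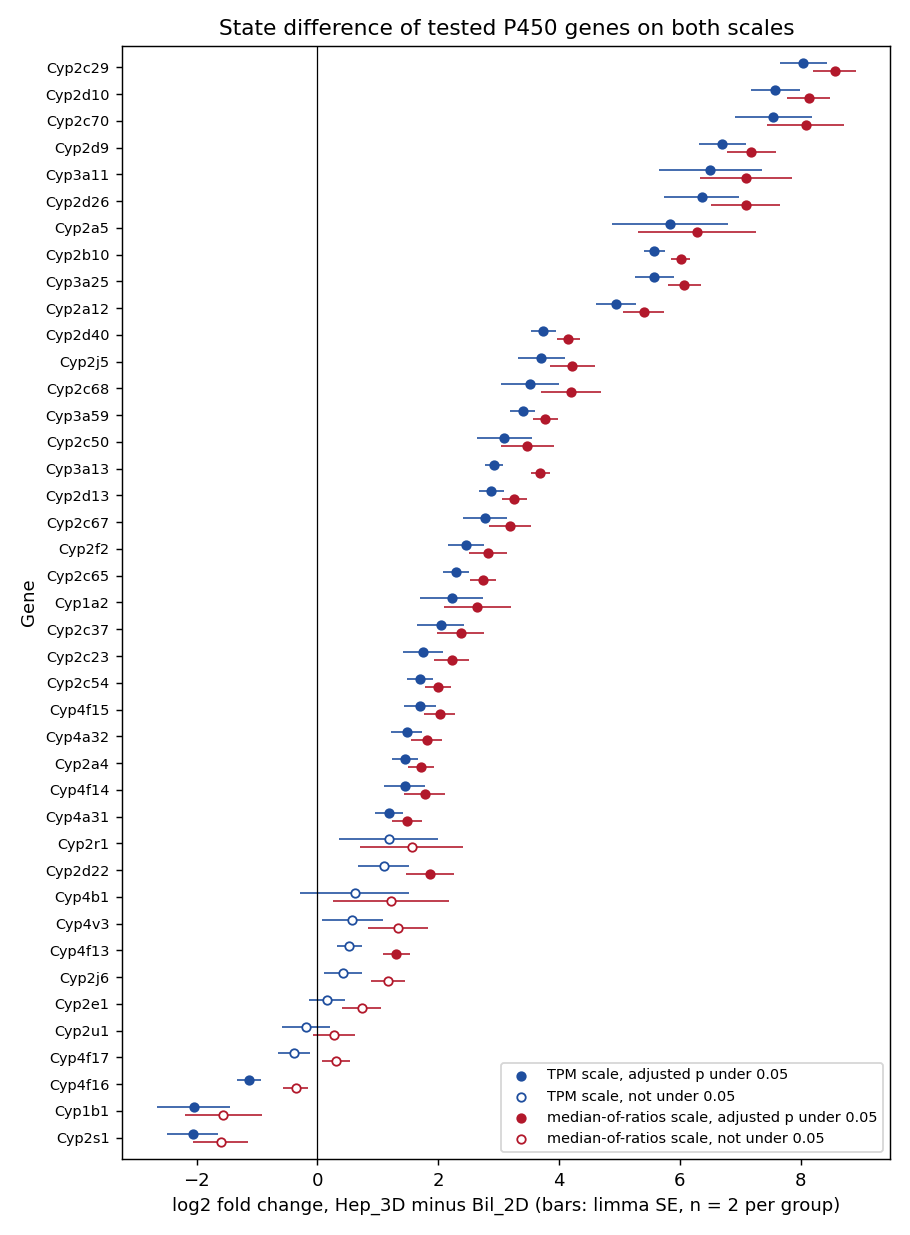
Log2 fold change of each tested P450 gene, Hep_3D minus Bil_2D, with limma's standard error (n = 2 per group), on the TPM scale (blue) and the median-of-ratios scale (red). Filled points have an adjusted p under 0.05: 29 genes above 0 and 3 below 0 on the TPM scale, and 31 above 0 and 0 below 0 after median-of-ratios scaling, where 1 gene is lower at an unadjusted p under 0.05 in limma.

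Family 4 was split. The Cyp4a genes within the naming rule, fatty acid hydroxylases and targets of PPAR alpha, were low. Cyp4a12a, outside that rule, had 20.6 and 16.8 TPM in Hep_3D. Cyp4a32 had 2.63 and 1.77 TPM in Hep_3D and 0.0974 and 0.178 TPM in Bil_2D. It rose with a log2 fold change of 1.48 (SE 0.26, limma adjusted p = 0.0119), with adjusted p of 0.0611 and 0.0547 without Bil_2D replicates 1 and 2. Cyp4a31 rose as well, and Cyp4a10 and Cyp4a14 were not tested. Both Cyp4a31 and Cyp4a32 passed the filter only through Hep_3D and so had to be higher there. Cyp4a14 had 2.04 and 0.649 TPM in Hep_3D and was listed at 0 in both Bil_2D libraries. Of 13 tested genes on a PPAR alpha list, 6 rose and 4 fell, or 7 and 1 after median-of-ratios scaling. Fabp1, the liver fatty acid binding protein, rose most, from 7.08 and 2.17 TPM in Bil_2D to 659 and 640 TPM in Hep_3D. Plin2, a lipid droplet coat protein, fell most, from 429 and 450 TPM to 121 and 89.9 TPM.

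The Cyp4f genes hydroxylate leukotrienes and fatty acids. Cyp4f16 was the most abundant P450 transcript of Bil_2D, with 22.8 and 30.4 TPM, and had 11.7 and 11.3 TPM in Hep_3D. The groups did not overlap, and it fell with a log2 fold change of -1.13 (SE 0.20, limma adjusted p = 0.0121). After median-of-ratios scaling the value was -0.36 and was not called (adjusted p = 0.281), and leaving out Bil_2D replicate 2, Hep_3D replicate 1 or Hep_3D replicate 2 gave adjusted p of 0.0615, 0.0551 and 0.0621 in TPM. Cyp4f13 had 16.6 and 19.4 TPM in Bil_2D and 22.7 and 30.4 TPM in Hep_3D. It was not called on the TPM scale (log2 fold change 0.53, adjusted p = 0.086), but passed with clone as a replicate block (0.0373) and after median-of-ratios scaling (log2 fold change 1.31, adjusted p = 0.0288). The rescaled call was lost with any library left out (adjusted p from 0.0591 to 0.152). Cyp4f14 and Cyp4f15 rose to levels between 1.46 and 3.11 TPM. Both passed the filter only through Hep_3D and so had to be higher there. Cyp4f17 was not called.

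Cyp4v3, a fatty acid hydroxylase known from the eye, had 13.8 and 9.85 TPM in Bil_2D and 29.1 and 10.8 TPM in Hep_3D. The groups overlapped and the difference was not called (log2 fold change 0.58, SE 0.51, limma adjusted p = 0.368). Cyp4b1, a P450 of lung, had 2.05 and 3.52 TPM in Bil_2D, and 1.37 TPM in clone 15C7 and 12.7 TPM in clone 19H5 in Hep_3D. It was not called (adjusted p = 0.58), and without Hep_3D replicate 1 its adjusted p was 0.0441.

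The 34 untested genes held 9 that were listed at 0 in all 4 libraries (Cyp2b19, Cyp2c66, Cyp2j8, Cyp2j12, Cyp2w1, Cyp4a29, Cyp4f37, Cyp4f40 and Cyp4x1) and 25 with traces, none above 3.81 TPM. Of these, 7 reached 1 TPM in 1 library. Cyp3a16, a fetal liver form, had 3.81 and 0.494 TPM in Hep_3D, with 0.274 TPM and a listed 0 in Bil_2D. Cyp2c55 had 0.981 and 3.01 TPM in Hep_3D and 0.373 and 0.0851 TPM in Bil_2D. Symbols of the same families with another ending (10 entries, pseudogenes and genes such as Cyp4a12a) fall outside the naming rule, and of them Cyp4a12a, a male-biased arachidonate hydroxylase, had 0.175 and 1.04 TPM in Bil_2D and 20.6 and 16.8 TPM in Hep_3D.

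Many members share sequence with close copies, which limits how surely reads can be given to 1 gene. Of the 40 tested genes with transcripts in GENCODE M21, 15 had at least 90% of their 31-base words found in no other gene, 19 had 50% to 90%, and 6 had less than 50%. The lowest was Cyp2c67 at 32.4%, followed by Cyp4a32 at 37.2%, Cyp2c68 at 38.0%, Cyp2a4 at 41.1%, Cyp2a5 at 45.4% and Cyp2d10 at 49.8%. Cyp2a4 shared 55.9% of its words with Cyp2a5, and Cyp2d10 shared 34.1% with Cyp2d11. The separate values of these 6 genes are therefore uncertain. Cyp2c70, Cyp2c23, Cyp2r1 and Cyp1b1 had only words of their own, and Cyp2c29 and Cyp3a11 had 89.5% and 84.2%.

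The clones were compared with cell state as a term. In limma 0 of the 41 genes were called between clone 19H5 and clone 15C7, as were 0 of all genes tested (0%). At an unadjusted p under 0.05 were 6 of the 41 and 1599 of all 12336 genes tested, shares that were close. This fit has 1 residual degree of freedom. The smallest p was that of Cyp3a11, lower in clone 19H5 with a log2 difference of -1.70 (adjusted p = 0.28). Hep_3D levels of 15 of the 41 genes were over 2-fold apart between the clones. Cyp2a5 and Cyp2c70 were higher in clone 19H5 and Cyp3a11 in clone 15C7, so Cyp3a made up 22.1% of the P450 pool in clone 15C7 and 10.2% in clone 19H5, and Cyp2a 2.49% and 7.81%. In Bil_2D, 28 of the 41 genes were higher in clone 15C7. The share of all genes tested is given neither for this count nor for the 2-fold difference in Hep_3D. Neither count can therefore be read as particular to the P450 genes. The state difference had opposite signs in the clones for 3 genes (Cyp2e1, Cyp2u1 and Cyp4b1), against 8.88% of all genes tested.

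**Figure D4:**
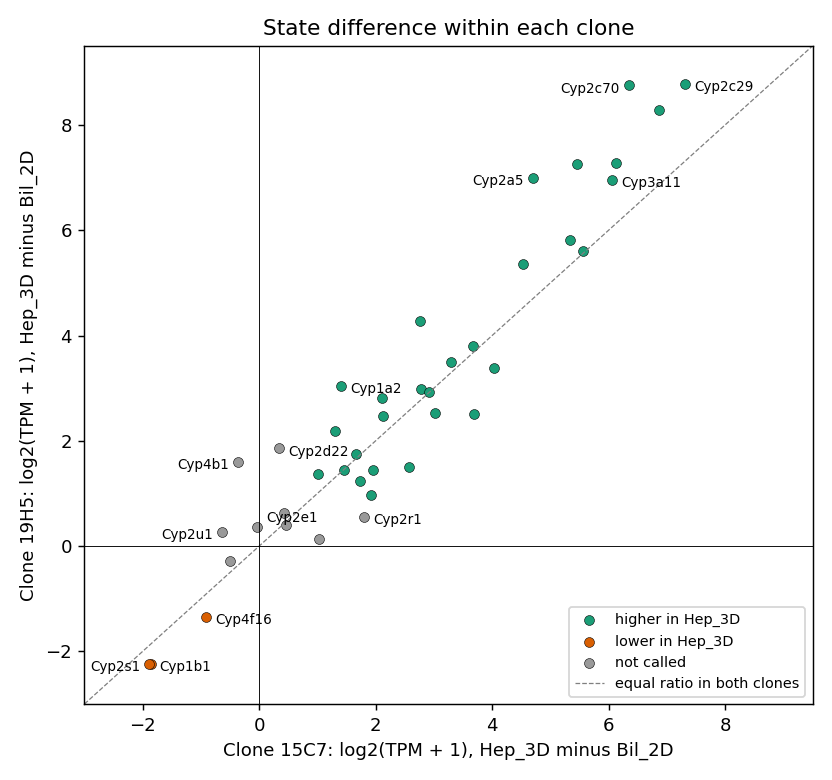
State difference of the 41 tested P450 genes within each clone in log2(TPM + 1), Hep_3D minus Bil_2D, clone 15C7 on the x axis and clone 19H5 on the y axis, coloured by the limma call, with a dashed line at equal difference. The 29 genes called higher lie above 0 in both clones, the 3 called lower lie below 0 in both, and 3 genes without a call have opposite signs.

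P450 activity needs electron donors and heme. Of 23 tested genes on that list, 1 rose and 11 fell, against 6.8% and 51.9% of all genes, shares near that background, and 6 rose and 2 fell after median-of-ratios scaling. Between 3 and 5 genes fell with a library left out (4 and 3 for Bil_2D replicates 1 and 2, 5 for either Hep_3D replicate), and 3 rose with the replicate block. Cyb5a, cytochrome b5, was the most abundant gene of the list, with 1028 and 791 TPM in Bil_2D and 482 and 620 TPM in Hep_3D. It fell on the TPM scale (log2 fold change -0.72, limma adjusted p = 0.0459, 0.0691 with the replicate block) and stood at 0.10 after median-of-ratios scaling (adjusted p = 0.779). Cyb5r1, a cytochrome b5 reductase family member, fell on both scales (-2.0 and -1.22). Blvrb, a biliverdin reductase, rose on both (1.88 and 2.65), from 11.7 and 10.8 TPM in Bil_2D to 43.5 and 44.2 TPM in Hep_3D. Alas1, the rate-limiting enzyme of heme synthesis, had a log2 fold change of 0.40 (adjusted p = 0.168) and 1.21 after median-of-ratios scaling (adjusted p = 0.0246). The reductase Por had 194 and 189 TPM in Bil_2D and 79.1 and 89.4 TPM in Hep_3D. It fell on the TPM scale (log2 fold change -1.18, limma adjusted p = 0.00606). After median-of-ratios scaling Por was at -0.37 and was not called (adjusted p = 0.134). Alas1 and Por were named after their values were seen.

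Of 31 tested regulators of P450 genes, 15 rose and 4 fell on the TPM scale, against 6.8% and 51.9% of all genes. After rescaling, against 11.9% and 9.54%, 18 rose and 0 fell in limma (20 and 1 at an unadjusted p under 0.05). Leaving out Bil_2D replicates 1 and 2 gave 11 and 6 rises and 1 and 2 falls, and leaving out Hep_3D replicates 1 and 2 gave 4 and 6 rises and 3 falls each. Cebpa, a factor of hepatocyte metabolic genes, rose most, from 4.91 and 4.65 TPM in Bil_2D to 106 and 77.4 TPM in Hep_3D (log2 fold change 3.99). Foxa2 fell most (log2 fold change -1.52, adjusted p = 0.00683), and was -0.72 after median-of-ratios scaling (adjusted p = 0.0756). Cebpb was the most abundant, with 295 and 266 TPM in Bil_2D and 134 and 153 TPM in Hep_3D. Its log2 fold change was -0.96 in TPM (adjusted p = 0.00877) but -0.14 when rescaled by size factors (adjusted p = 0.51). The receptors that sense drugs and fatty acids were named after their values were seen. The constitutive androstane receptor gene Nr1i3 had 0.0773 TPM and a listed 0 in Bil_2D and 2.39 and 3.49 TPM in Hep_3D (adjusted p = 0.00779). Nr1i3 passed the filter only through Hep_3D and so had to be higher there. The pregnane X receptor gene Nr1i2 had 9.0 and 0.309 TPM in Bil_2D and 6.76 and 5.77 TPM in Hep_3D and was not called (adjusted p = 0.432). Ppara rose from 1.62 and 2.28 TPM to 16.8 and 17.6 TPM. Ahr fell from 30.9 and 35.7 TPM to 17.1 and 15.2 TPM (adjusted p = 0.0101), and was not called after median-of-ratios scaling (-0.22, adjusted p = 0.39). On a list of 11 genes that answer to the androstane and pregnane X receptors, all of them P450 members, 8 were tested and all 8 rose on both scales, against 6.8% and 11.9% of all genes. Of these, 6 passed the filter only through Hep_3D and so had to be higher there (Cyp2a4, Cyp2a5, Cyp2b10, Cyp2c29, Cyp2c37 and Cyp3a25). Cyp2a5 and Cyp2c37 were not called when either Bil_2D replicate was left out.

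Other P450 families and other oxidising enzymes were counted in the same way. Of 9 tested P450 genes of other families, 3 rose and 2 fell, and 3 rose and 0 fell after median-of-ratios scaling in limma (6 and 1 at an unadjusted p under 0.05). The number that rose was 1 without either Bil_2D replicate, while 1 fell when Bil_2D replicate 2 was dropped. With any other library dropped 0 fell in limma (2, 1 and 1 at an unadjusted p under 0.05 for Bil_2D replicate 1, Hep_3D replicate 1 and Hep_3D replicate 2). Cyp27a1, a mitochondrial sterol hydroxylase, rose from 6.77 and 11.3 TPM to 45.0 and 58.1 TPM. Cyp26b1, which degrades retinoic acid, fell from 6.67 and 1.72 TPM to 0.0497 and 0.0742 TPM (adjusted p = 0.0325, and 0.0763 after median-of-ratios scaling). Of 22 tested phase I enzymes outside the P450s, 8 rose and 2 fell, or 10 and 1 after median-of-ratios scaling, and 4, 3, 5 and 5 rose as Bil_2D replicates 1 and 2 and Hep_3D replicates 1 and 2 were left out. The aldehyde oxidase Aox3 rose most, from 0.451 and 0.144 TPM to 40.5 and 64.4 TPM. It passed the filter only through Hep_3D and so had to be higher there. The monoamine oxidase Maoa fell most, from 34.3 and 42.3 TPM to 7.42 and 9.47 TPM.

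The labels were set against marker lists. Of 11 tested hepatocyte genes 9 rose, against 6.8% of all genes, and 9 rose after median-of-ratios scaling, against 11.9%. Among the 9, Arg1, Cps1, G6pc and Tat passed the filter only through Hep_3D and so had to be higher there. The list summed to 74485 and 67111 TPM in Hep_3D and to 1865 and 303 TPM in Bil_2D. The 12 bile duct markers summed to 6090 and 9789 TPM in Bil_2D and to 13279 and 9615 TPM in Hep_3D. Of 10 tested, 2 rose (Ggt1 and Spp1) and 5 fell, against 6.8% and 51.9% of all genes, so the falls were near that share. After median-of-ratios scaling 2 rose and 2 fell, against 11.9% and 9.54%. Spp1 made up most of each sum. Krt19, a duct keratin and the marker that fell most, had 752 and 1615 TPM in Bil_2D and 1.12 and 15.9 TPM in Hep_3D. The 7 endothelial markers summed to between 0.0594 and 0.371 TPM in the 4 libraries, with Lyve1 and Clec4g at 0, and the 9 macrophage and leukocyte markers to 7.65 and 14.2 TPM in Bil_2D and 3.15 and 3.59 TPM in Hep_3D, with Cd3e at 0 in all 4. The 11 fibroblast and stellate markers summed to 6.32 and 1.45 TPM in Bil_2D and to 183 and 4.14 TPM in Hep_3D. The high value was 178 TPM of Dcn in Hep_3D replicate 1, while Col1a1 was at 1.17 TPM there. The part of these genes in the P450 results was not tested.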

How the data were processed

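RNA sequencing libraries were built from total RNA extracted with a Qiagen kit, per the labels' protocols. The authors deposited 1 table of TPM for 24493 gene symbols. Salmon, DESeq2 and mm10 are named in the submitters' processing notes without versions or roles, and the annotation is not given in the sources used here. TPM keeps no depth, so the counting error behind each value is unknown and no count model was fitted.

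Groups came from the sample titles. The labels do not say that libraries of a group came from separate animals, so p-values reflect only how far these libraries vary, and part of that may be technical. The 12336 genes reaching 1 TPM in 2 or more libraries entered limma 3.58.1 as log2(TPM + 1) in R 4.3.3 (eBayes with a trend, 2 residual and 2.29 prior degrees of freedom), adjusted by Benjamini-Hochberg over all of them. The fit was tested on simulated data. Libraries are paired by the clone numbers in the labels, and same-clone deviations correlated at 0.414 across genes. Mean and SD are not given where a library is listed at 0, since an exact 0 can be a failed estimate. Genes named with values were the 15 largest rises, up to 8 falls, the highest gene of each tested subfamily, the 4 highest uncalled genes, up to 3 untested genes reaching 1 TPM in 1 library, and from each other list the largest rise and fall, with the highest gene for regulators and electron transfer. Any other gene given with values was chosen after its values were seen. The gene set and all lists were chosen with earlier results of these data known. Also tried were a pseudocount of 0.1 or 5, a filter at 5 TPM or none, median-of-ratios or quantile scaling, no trend, clone as a block, and each library left out. With a library left out, the lone sample is taken to vary like the other group. Promoters and positions are RefSeq's (GRCm38.p6, the assembly of mm10), and shared 31-base words were counted on both strands in GENCODE M21 transcripts.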

Additional observations from a re-analysis of the deposited data

Results flagged for a closer look

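In 3 tested P450 genes, Hep_3D was higher than Bil_2D in 1 clone and lower in the other, on the log2(TPM + 1) scale. This holds for 8.88% of all genes tested. The difference between clones was not tested, because each clone gave 1 library per state. Cyp4b1 moved by -0.36 in clone 15C7 and by 1.60 in clone 19H5. Cyp2u1 moved by -0.64 in clone 15C7 and by 0.28 in clone 19H5. Cyp2e1 moved by -0.0399 in clone 15C7 and by 0.35 in clone 19H5.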

How the results depend on the processing

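Of the 32 called P450 genes, 19 were called in every other setting listed in the methods that tested them, 13 lost the call when at least 1 library was left out, and all 32 kept their sign in every setting run. The 29 rises became 18 with the 5 TPM filter, which tests fewer genes, and 19 to 28 with a library left out. The 3 falls became 1 with that filter, 0 on the median-of-ratios scale, 1 after quantile normalization and 0 to 2 with a library left out. On the median-of-ratios scale with a library left out (added after seeing the data), 7 to 23 rose and 0 fell in limma, where 0 to 2 were lower at an unadjusted p under 0.05. The log2 ratio of summed TPM was 4.25, was 5.08 on the median-of-ratios scale and lay between 4.04 and 4.45 with a library left out.

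With clone as a replicate block 30 P450 genes rose and 3 fell, against 29 and 3 without it. On the TPM scale the block changed only the call of Cyp4f13. With rescaling and the replicate block together 31 rose and 2 fell: Cyp1b1, Cyp2s1 and Cyp2j6 gained a call (adjusted p = 0.0382, 0.0348 and 0.0245) and Cyp2d22 lost it (0.0594).

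Electron transfer and heme genes: 1 rose, but 6 on the median-of-ratios scale, 5 after quantile normalization and 3 with the replicate block; 11 fell, but 2, 3 and, with a library left out, 3 to 5. Regulators: 15 rose, and 4 to 11 with a library left out; 4 fell, but 0 on the median-of-ratios scale, 1 after quantile normalization and 1 to 3 with a library left out. Other P450 families: 3 rose, and 1 to 4 with a library left out; 2 fell, but 1 with log2(TPM + 5) or the 5 TPM filter, 0 on the median-of-ratios scale and after quantile normalization, and 0 to 1 with a library left out. Other phase I enzymes: 8 rose, and 3 to 5 with a library left out; 2 fell, and 1 on the median-of-ratios scale. No cause was tested.

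Signs turned for 5 uncalled genes. Cyp4f17 (-0.39) was 0.31 on the median-of-ratios scale and 0.21 after quantile normalization. Cyp2u1 (-0.18) was 0.27 on the median-of-ratios scale, with or without the replicate block, 0.18 after quantile normalization and 0.31 without Bil_2D replicate 1, -0.67 without Bil_2D replicate 2, and, with both rescaling and a library left out, 0.69 (Bil_2D replicate 1), 0.26 (Hep_3D replicate 1) and 0.29 (Hep_3D replicate 2). Without Hep_3D replicate 2, Cyp2e1 was -0.15, Cyp4b1 -0.65 (-0.13 on the median-of-ratios scale) and Cyp4v3 1.25. Without Hep_3D replicate 1 they were 0.47, 1.88 and -0.10. Depth is unknown, so values under 1 TPM cannot be told from counting error.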
